A study of Mus musculus with 8 samples.

Results

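RNA-seq levels of 9 genes that restrain MAP kinase signalling were described in tumour-antigen-specific CD8+ T cells: the dual-specificity phosphatases Dusp1, Dusp2, Dusp4, Dusp5, Dusp6 and Dusp10, the Sprouty genes Spry1 and Spry2, and Spred1. They were taken by gene symbol from tables of 23746 rows. Each had 1 row, and all 9 were among the 9782 genes tested, those with at least 1 FPKM (a unit that sets fragments against the length of the transcript and the size of the library, here as deposited) in at least 2 libraries. The study held 8 libraries of AH1 tetramer-positive CD8+ T cells from BALB/c mice, where the tetramer presents a peptide of an endogenous murine leukaemia virus envelope protein, a tumour antigen of this strain. The groups, named as in the labels, were Cd69-/- cells of the term diff subset (Cd69KO term diff), wild-type term diff cells (Cd69WT term diff), Cd69-/- stem-like cells (Cd69KO stem-like) and wild-type stem-like cells (Cd69WT stem-like), with 2 libraries each. No treatment is named for any group. The age of the mice, the tumour, the sort gates, the kind of Cd69 deletion and whether libraries came from separate mice are not given in the sources used here, so the p-values measure the spread between these libraries, which may be technical. The comparisons ask how the genes differ between the subsets and whether they differ without Cd69, which encodes a lectin-like receptor that appears soon after activation and favours retention in tissue.

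MAP kinases are switched on when an upstream kinase adds phosphate to a threonine and a tyrosine in the activation loop. Dual-specificity phosphatases remove both phosphates, and Sprouty and Spred proteins act upstream, at the level of receptor signalling and Ras. Many of these genes are themselves induced by the T cell receptor through ERK, so they serve as negative feedback and are often read as a trace of recent signalling. Dusp1, Dusp2, Dusp4 and Dusp5 encode nuclear enzymes, and Dusp5 acts on ERK with high selectivity. Dusp6 encodes a cytoplasmic enzyme that also prefers ERK, while the product of Dusp10 prefers JNK and p38.

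Across the 8 libraries the fragments implied by the deposited confidence intervals summed to between 2055411 and 2591061 per library, and the 9 genes held between 64 and 2371 implied fragments each. Counting error from these was 2.05% to 12.5% of a value, largest for Spred1. Rows of small RNA took 56.1% to 84.5% of the summed FPKM, and the Cd69WT term diff and Cd69WT stem-like replicate 2 libraries stood apart with the lowest shares, 56.1% and 63.7%. Cd69 was at 2.21 and 2.43 FPKM in Cd69KO term diff against 10.4 and 12.9 FPKM in Cd69WT term diff, and at 3.69 and 2.42 FPKM in Cd69KO stem-like against 22.5 and 23.4 FPKM in Cd69WT stem-like, so no library went against its genotype label. Fixed markers of CD8 T cells summed to 1318 to 1485 FPKM in Cd69KO and 983 to 1055 FPKM in Cd69WT term diff libraries. In stem-like libraries they summed to 1167 to 1209 FPKM and 991 to 1149 FPKM in the same order. Markers of terminally differentiated T cells summed to 768 to 924 FPKM in Cd69KO and 587 to 625 FPKM in Cd69WT term diff libraries. In stem-like libraries these were at 150 to 171 FPKM in Cd69KO and 104 to 109 FPKM in Cd69WT, so they were higher in Cd69KO in both subsets. Markers of stem-like T cells summed to 9.07 to 13.0 FPKM in term diff and 185 to 236 FPKM in stem-like libraries. The sort gates are not known, so such markers may restate the sort.

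Markers of other cell types were mostly low, and some moved with the subset. B cell markers (6 of 6 in the tables) summed to at most 1.12 FPKM and neutrophil markers (5 of 6) to at most 1.28 FPKM. No erythroid marker in the tables (3 of 4) exceeded 1.34 FPKM. The 11 myeloid markers analysed (of 12) summed to 47.2 to 50.6 FPKM in term diff and 39.9 to 57.0 FPKM in stem-like libraries, mostly from Fcer1g and Cst3. The leading genes moved in opposite ways, with Fcer1g at 17.1 to 29.8 FPKM in term diff and 0.520 to 1.53 FPKM in stem-like libraries, and Cst3 at 14.4 to 27.8 FPKM and 31.3 to 48.5 FPKM in the same order. Cd68 was at 0.964 to 2.70 FPKM in term diff and 3.02 to 3.32 FPKM in stem-like libraries, Lyz2 at 0.260 to 1.48 FPKM and 0.881 to 3.11 FPKM in the same order, and Csf1r at most at 0.418 FPKM. The 5 NK markers summed to 29.3 to 38.4 FPKM in term diff and 20.6 to 28.7 FPKM in stem-like libraries, mostly from Klre1. Klre1 was at 25.1 to 36.4 FPKM in term diff and 14.1 to 21.5 FPKM in stem-like libraries. Eomes went the other way, at 1.32 to 4.68 FPKM and 4.82 to 6.84 FPKM in the same order, and Ncr1 reached at most 0.375 FPKM. The 9 tumour and stroma markers summed to 9.01 to 11.8 FPKM in term diff and 27.8 to 35.6 FPKM in stem-like libraries, from Igfbp7 and Pecam1, while Epcam, Col1a1 and Cdh5 reached at most 0.715, 0.445 and 0.203 FPKM. The 6 CD4 and regulatory T cell markers summed to 11.0 to 14.5 FPKM in term diff and 24.8 to 31.5 FPKM in stem-like libraries, led by Il2ra and Ikzf2, with Foxp3 at most 1.14 FPKM and Cd4 at 1.38 to 5.52 FPKM. The part of such cells in the subset differences below was not tested. In sorted bulk samples, fewer cells with a transcript and less of it per cell cannot be told apart.

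The promoters of 5 of these genes are shown to set the patterns side by side: Dusp5 was higher in term diff, Dusp6, Spry1 and Spry2 were lower, and Dusp1 passed no test. Each runs 5′ to 3′ over 250 bases before and 50 bases after the RefSeq start site (GRCm38.p6, the assembly of mm10, the build named for the files). Promoters were matched for 8 of the 9 genes, all but Dusp4. Capitals mark any match, on either strand, to 10 motifs.
Dusp5, chr19:53528895-53529194, plus strand: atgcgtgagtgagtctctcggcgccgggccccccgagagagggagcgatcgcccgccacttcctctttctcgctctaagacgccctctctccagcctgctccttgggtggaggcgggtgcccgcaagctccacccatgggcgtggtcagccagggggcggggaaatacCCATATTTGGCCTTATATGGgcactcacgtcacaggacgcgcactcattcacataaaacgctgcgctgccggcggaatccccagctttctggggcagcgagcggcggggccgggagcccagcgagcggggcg
Dusp6, chr10:99262981-99263280, plus strand: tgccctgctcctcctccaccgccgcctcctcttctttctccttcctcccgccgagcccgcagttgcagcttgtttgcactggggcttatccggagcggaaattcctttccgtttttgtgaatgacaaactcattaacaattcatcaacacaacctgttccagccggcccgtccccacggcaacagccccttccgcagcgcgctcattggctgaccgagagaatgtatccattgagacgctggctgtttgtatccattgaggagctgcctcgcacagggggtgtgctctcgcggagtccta
Spry1, chr3:37639697-37639996, plus strand: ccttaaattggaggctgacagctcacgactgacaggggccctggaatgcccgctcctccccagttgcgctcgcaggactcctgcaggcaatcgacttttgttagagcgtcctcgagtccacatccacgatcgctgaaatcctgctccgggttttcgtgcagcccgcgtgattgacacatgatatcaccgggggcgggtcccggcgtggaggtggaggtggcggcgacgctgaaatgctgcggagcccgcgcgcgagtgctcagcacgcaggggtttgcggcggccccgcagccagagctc
Spry2, chr14:105896770-105897069, minus strand: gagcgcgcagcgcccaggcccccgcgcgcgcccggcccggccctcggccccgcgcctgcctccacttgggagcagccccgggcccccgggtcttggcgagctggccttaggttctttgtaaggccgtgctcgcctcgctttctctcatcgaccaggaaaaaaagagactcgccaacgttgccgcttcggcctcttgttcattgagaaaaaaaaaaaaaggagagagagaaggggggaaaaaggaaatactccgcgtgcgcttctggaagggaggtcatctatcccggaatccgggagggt
Dusp1, chr17:26508423-26508722, minus strand: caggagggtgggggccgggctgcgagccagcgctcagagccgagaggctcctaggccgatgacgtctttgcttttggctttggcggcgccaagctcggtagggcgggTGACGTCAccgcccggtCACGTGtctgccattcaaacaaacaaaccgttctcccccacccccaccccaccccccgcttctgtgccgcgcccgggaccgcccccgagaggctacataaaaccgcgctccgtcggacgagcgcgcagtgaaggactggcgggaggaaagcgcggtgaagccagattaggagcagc
The Dusp5 promoter held adjacent CArG boxes, the sequence bound by serum response factor, CCATATTTGG starting 82 bases and CCTTATATGG starting 72 bases before the start site. Of 32851 promoters of the same length, 1.63% held a CArG box, and none of the other 7 members' promoters did. In the Dusp1 promoter the cAMP response element TGACGTCA, present in 1.79% of promoters, and the E-box CACGTG, present in 7.15%, lay 143 and 126 bases before the start. Dusp2, not printed, held an E-box and the EGR site GCGNGGGCG (5.55% of promoters). No match to the AP-1 site TGANTCA (7.81% of promoters), the ETS site CCGGAAGT (3.89%), the forkhead site TGTTTAC (3.65%), the NFAT core TGGAAA (21.4%), the TATA box TATAAA (13.6%) or the HMG box CTTTGAT (3.73%) was found in the 8 promoters, and no motif searched was found in those of Dusp6, Dusp10, Spry1, Spry2 and Spred1. The marked matches do not overlap each other. The gene model of the files starts 173 bases downstream of the RefSeq start for Dusp5, and 80 and 379 bases downstream for Dusp10 and Spred1. It starts within 3 bases of it for the other 5 matched genes.

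Averaged over genotypes, 5 of the 9 genes differed between the subsets, 1 higher and 4 lower in term diff cells. Among all genes tested 10.5% were higher and 9.93% lower in this comparison (adjusted p under 0.05 in limma with Benjamini-Hochberg adjustment over 9782 genes, the rule for every call here). Dusp5 was the gene that rose. Dusp6, Spry1, Spry2 and Dusp4 fell, while Dusp1, Dusp2, Dusp10 and Spred1 did not pass. All differences are on the log2(FPKM + 1) scale, which understates changes of low genes, and are given ± standard error. The median difference was -0.23 over the 9 genes and 0.02 over all genes tested.

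**Figure D1:**
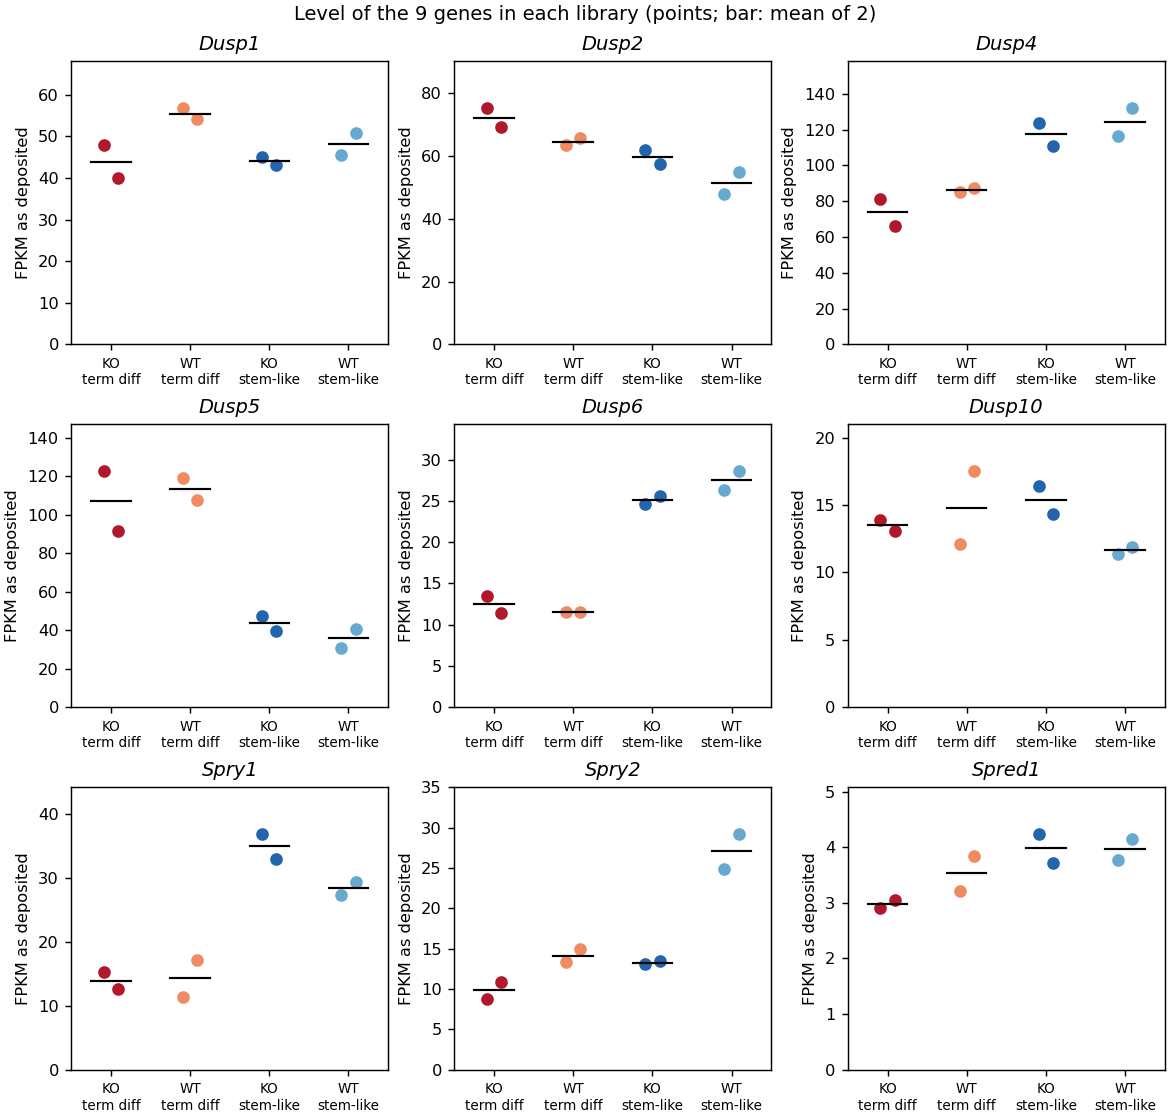
FPKM as deposited (vertical axes, from 0) of each gene in each library, with Cd69KO and Cd69WT term diff on the left and Cd69KO and Cd69WT stem-like on the right of each panel; points are libraries and bars the mean of 2. Dusp5 sits above 91 FPKM in the 4 term diff libraries and below 48 FPKM in the 4 stem-like ones, Dusp6 and Spry1 show the opposite order, and Spry2 stands highest in the Cd69WT stem-like libraries.

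Of the nuclear phosphatases, Dusp5 (chr19:53529318-53541322, plus strand) showed the largest difference among the 9 genes. It was at 123 and 91.3 FPKM in Cd69KO term diff, against 47.3 and 39.6 FPKM in Cd69KO stem-like libraries. In wild type it was at 119 and 107 FPKM in term diff, against 30.9 and 40.5 FPKM in stem-like libraries. Every term diff library lay above every stem-like library. The difference was 1.27 ± 0.20 in Cd69KO (adjusted p = 0.0066), 1.65 ± 0.20 in Cd69WT (adjusted p = 0.0017) and 1.46 ± 0.14 averaged over genotypes (adjusted p = 0.00026), all by limma. The Cd69KO call ended without Cd69KO stem-like replicate 2 (adjusted p = 0.0502). An antisense gene model overlaps Dusp5 in the GENCODE annotation, and since the strand setting of the counting is not given, its reads cannot be told apart from those of Dusp5.

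Dusp4 (chr8:34807610-34819894, plus strand), a nuclear phosphatase of ERK and JNK, had the highest level of the 9 genes in stem-like libraries. It was at 81.1 and 66.4 FPKM in Cd69KO term diff and 124 and 111 FPKM in Cd69KO stem-like libraries, and at 85.4 and 87.5 FPKM in Cd69WT term diff and 117 and 132 FPKM in Cd69WT stem-like libraries. The 4 term diff values lay below the 4 stem-like values. Averaged over genotypes the difference was -0.59 ± 0.11 (adjusted p = 0.0077, limma), a call held in all 18 alternatives that gave it. Within genotypes it was -0.67 ± 0.16 in Cd69KO (adjusted p = 0.037) and -0.52 ± 0.16 in Cd69WT (adjusted p = 0.073), and the interaction did not pass (-0.15 ± 0.23, adjusted p = 0.81). The Cd69WT difference passed after median-of-ratios scaling (adjusted p = 0.022) and with voom on implied fragments (adjusted p = 0.00031). With single libraries left out the Cd69KO call ended at adjusted p = 0.228 (Cd69KO stem-like replicate 1), 0.0953 (Cd69KO stem-like replicate 2), 0.0684 (Cd69KO term diff replicate 1), 0.212 (Cd69KO term diff replicate 2) and 0.0503 (Cd69WT term diff replicate 2). It also ended without a filter (adjusted p = 0.0754), with a replicate block (adjusted p = 0.0676) and with only the groups compared in the fit (adjusted p = 0.0521).

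Dusp2 (chr2:127336159-127338377, plus strand), a nuclear phosphatase of lymphocytes, was at 75.2 and 69.3 FPKM in Cd69KO term diff and 61.9 and 57.6 FPKM in Cd69KO stem-like libraries. In wild type it was at 63.6 and 65.6 FPKM in term diff and 47.8 and 54.8 FPKM in stem-like libraries. The term diff libraries lay above the stem-like libraries without overlap, yet the difference averaged over genotypes was small and missed the threshold (0.30 ± 0.09, adjusted p = 0.057, limma). It passed after median-of-ratios scaling (adjusted p = 0.031) and with voom on implied fragments (adjusted p = 0.0026).

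Dusp1 (chr17:26505591-26508472, minus strand), a nuclear phosphatase of p38 and JNK that is induced quickly by many stimuli, showed overlapping subsets. It was at 47.8 and 39.9 FPKM in Cd69KO term diff and 45.0 and 43.1 FPKM in Cd69KO stem-like libraries, and at 56.8 and 54.1 FPKM in Cd69WT term diff and 45.6 and 50.8 FPKM in Cd69WT stem-like libraries. The highest values were those of Cd69WT term diff. The difference averaged over genotypes was 0.09 ± 0.10 (adjusted p = 0.55, limma), with a 95% interval of -0.13 to 0.31.

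The cytoplasmic ERK phosphatase gene Dusp6 (chr10:99263231-99267489, plus strand) fell in term diff cells of both genotypes. It was at 13.5 and 11.5 FPKM in Cd69KO term diff, against 24.6 and 25.6 FPKM in Cd69KO stem-like libraries. In wild type it was at 11.5 and 11.5 FPKM in term diff, against 26.4 and 28.6 FPKM in stem-like libraries. No term diff library came near a stem-like one. The difference was -0.96 ± 0.12 in Cd69KO (adjusted p = 0.0024) and -1.18 ± 0.12 in Cd69WT (adjusted p = 0.00075), by limma. Dusp6 was called in every alternative of both, with a highest adjusted p of 0.0237 in Cd69KO and 0.0287 in Cd69WT.

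Dusp10 (chr1:184034461-184075636, plus strand), the phosphatase gene of JNK and p38, did not separate the subsets. It was at 13.9 and 13.1 FPKM in Cd69KO term diff and 16.4 and 14.3 FPKM in Cd69KO stem-like libraries, and at 12.1 and 17.5 FPKM in Cd69WT term diff and 11.4 and 11.9 FPKM in Cd69WT stem-like libraries. Cd69WT term diff libraries were far apart, with an SD of 26.0% of their mean. The difference averaged over genotypes was 0.06 ± 0.12 (adjusted p = 0.75, limma), with a 95% interval of -0.21 to 0.34.

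Spry1 (chr3:37639950-37644599, plus strand), a membrane-associated inhibitor of Ras and ERK signalling, also fell in term diff cells of both genotypes. It was at 15.3 and 12.5 FPKM in Cd69KO term diff, against 36.9 and 32.9 FPKM in Cd69KO stem-like libraries. In wild type it was at 11.4 and 17.2 FPKM in term diff, against 27.3 and 29.4 FPKM in stem-like libraries. The subsets did not overlap, though Cd69WT term diff libraries differed by an SD of 28.4% of their mean. The difference was -1.27 ± 0.19 in Cd69KO (adjusted p = 0.0055) and -0.97 ± 0.19 in Cd69WT (adjusted p = 0.014), by limma. The Cd69WT call ended without Cd69WT stem-like replicate 2 (adjusted p = 0.0604), without Cd69WT term diff replicate 1 (adjusted p = 0.0576) and without a filter (adjusted p = 0.0585), and the Cd69KO call without Cd69KO stem-like replicate 1 (adjusted p = 0.05004). Averaged over genotypes, -1.12 ± 0.13 (adjusted p = 0.00078), it was called in all 18 alternatives. An unclassified gene model lies on the opposite strand within Spry1, with the same limit on strand as for Dusp5.

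Spry2 (chr14:105891947-105896819, minus strand), a second Sprouty gene of the same pathway, followed another pattern, with its highest level in a single group. It was at 8.79 and 10.9 FPKM in Cd69KO term diff and 13.1 and 13.5 FPKM in Cd69KO stem-like libraries. In wild type it was at 13.3 and 14.97 FPKM in term diff, against 24.9 and 29.2 FPKM in stem-like libraries. The Cd69WT stem-like libraries lay above the other 6, which spanned 8.79 to 14.97 FPKM. Between subsets the difference was -0.40 ± 0.14 in Cd69KO (adjusted p = 0.12) and -0.89 ± 0.14 in Cd69WT (adjusted p = 0.0056), by limma. The Cd69WT call ended without both Cd69WT replicate 2 libraries (adjusted p = 0.0722). Averaged over genotypes the difference was -0.64 ± 0.10 (adjusted p = 0.0028), and the interaction did not pass (0.48 ± 0.20, adjusted p = 0.54), both by limma.

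Spred1 (chr2:117121450-117179336, plus strand), whose product brings the Ras inhibitor neurofibromin to the membrane, was the lowest of the 9 genes. It was at 2.90 and 3.06 FPKM in Cd69KO term diff and 4.24 and 3.72 FPKM in Cd69KO stem-like libraries, and at 3.21 and 3.85 FPKM in Cd69WT term diff and 3.77 and 4.15 FPKM in Cd69WT stem-like libraries. The subsets overlapped by a narrow margin, and counting error alone was 9.93% to 12.5% of each value. The difference averaged over genotypes was -0.23 ± 0.09 (adjusted p = 0.12, limma).

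By count, within Cd69KO 1 of the 9 genes rose (Dusp5) and 3 fell (Dusp4, Dusp6 and Spry1), where 3.88% of all genes were higher and 5.56% lower. Within Cd69WT again 1 rose (Dusp5) and 3 fell (Dusp6, Spry1 and Spry2), where 7.24% of all genes were higher and 5.83% lower. With all 4 term diff libraries set against all 4 stem-like libraries, 5 of the 9 genes (Dusp2, Dusp4, Dusp5, Dusp6 and Spry1) did not overlap, against 21.9% of all genes. No member passed the interaction of genotype and subset, which 0.0307% of all genes did (3 genes). At an unadjusted p under 0.05 Spry2 did (0.48 ± 0.20, adjusted p = 0.54, limma), and voom on implied fragments also called 0 members.

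**Figure D2:**
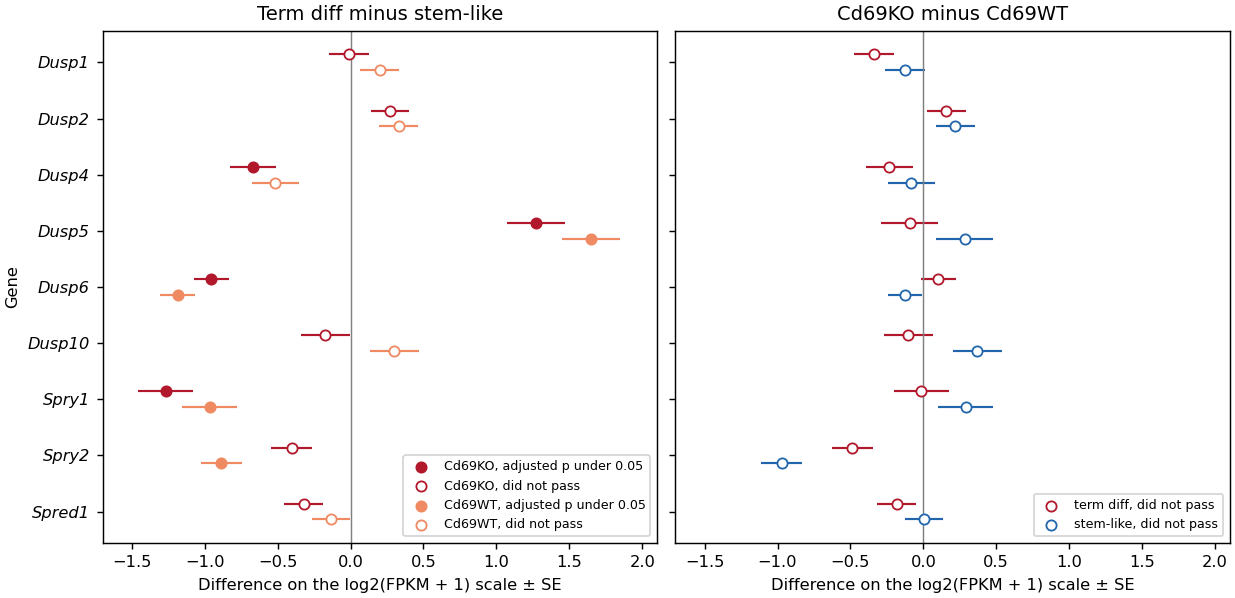
Difference on the log2(FPKM + 1) scale ± SE (horizontal axes) for each gene, term diff minus stem-like within Cd69KO and Cd69WT on the left and Cd69KO minus Cd69WT within term diff and stem-like on the right; filled points have an adjusted p under 0.05. Dusp5 lies right of 0 and Dusp6 and Spry1 left of 0 in both genotypes, and in the right panel Spry2 lies furthest from 0 in both subsets, with no point filled.

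Ratios between genes within a library do not depend on how that library was scaled. The ratio of Dusp5 to Dusp6 was 9.07 and 7.97 in Cd69KO term diff and 10.3 and 9.31 in Cd69WT term diff. In Cd69KO stem-like libraries it was 1.92 and 1.55, and in Cd69WT stem-like libraries 1.17 and 1.41. Dusp5 exceeded Dusp4 in every term diff library, with ratios of 1.51 and 1.37 in Cd69KO and 1.39 and 1.23 in Cd69WT. In stem-like libraries Dusp4 was the higher, at ratios of Dusp5 to Dusp4 of 0.382 and 0.357 in Cd69KO and 0.265 and 0.307 in Cd69WT. Dusp5 took 28.3% to 32.2% of the summed FPKM of the 9 genes in term diff and 9.24% to 12.7% in stem-like libraries, and Dusp4 20.9% to 23.0% and 32.5% to 34.8% in the same order. The sum itself overlapped, at 318 to 381 FPKM in term diff and 335 to 381 FPKM in stem-like libraries. These ratios were chosen after the values were seen and are given as a description.

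**Figure D3:**
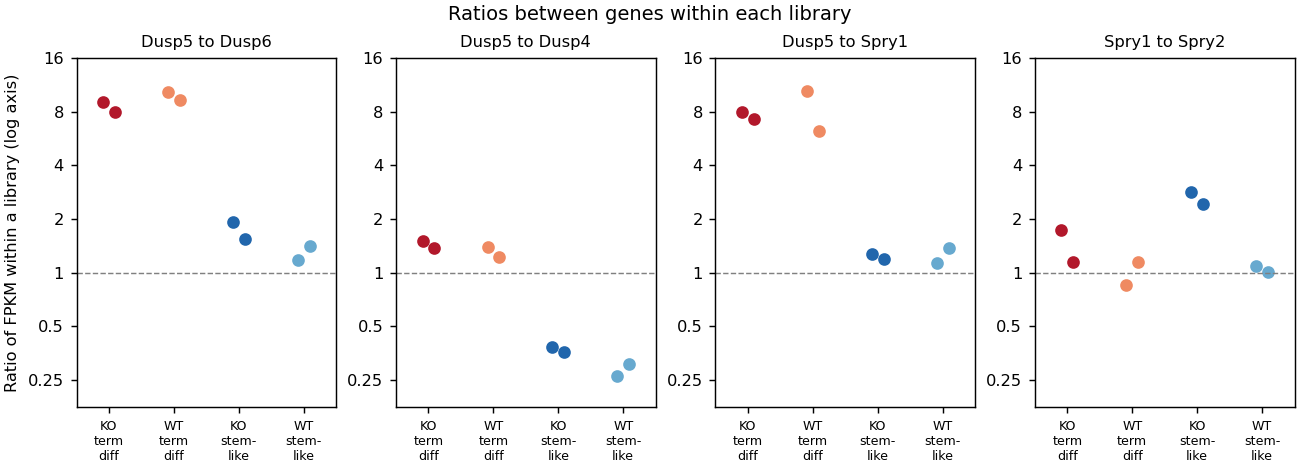
Ratio of FPKM between pairs of genes within each library (vertical axes, log scale; dashed line at 1), with Cd69KO and Cd69WT term diff on the left and Cd69KO and Cd69WT stem-like on the right of each panel; points are libraries. Dusp5 to Dusp6 lies at 7.97 to 10.3 in term diff and 1.17 to 1.92 in stem-like libraries, and Spry1 to Spry2 is highest in Cd69KO stem-like, at 2.82 and 2.44.

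Between genotypes, Spry2 was the member that fell, and it passed when averaged over subsets. In stem-like cells it was at 13.1 and 13.5 FPKM in Cd69KO against 24.9 and 29.2 FPKM in Cd69WT libraries, and in term diff cells at 8.79 and 10.9 FPKM in Cd69KO against 13.3 and 14.97 FPKM in Cd69WT libraries. Within each subset every Cd69KO library lay below every Cd69WT library. The difference averaged over subsets was -0.73 ± 0.10 (adjusted p = 0.022, limma), in a comparison that called 0.542% of all genes (53 genes), 0.266% higher and 0.276% lower. Within stem-like cells it was -0.97 ± 0.14 (adjusted p = 0.063) and within term diff cells -0.49 ± 0.14 (adjusted p = 0.21). The regulatory T cell marker Ikzf2 was at 4.02 and 4.39 FPKM in Cd69KO stem-like against 9.12 and 9.40 FPKM in Cd69WT stem-like, and at 2.01 and 1.69 FPKM in Cd69KO term diff against 3.69 and 5.31 FPKM in Cd69WT term diff libraries, the same order of groups as Spry2 at the top and the bottom. Foxp3 was at 1.14 and 0.979 FPKM in Cd69KO stem-like against 0.423 and 0.475 FPKM in Cd69WT stem-like, and at 0.233 and 0.291 FPKM in Cd69KO term diff against 0.261 and 0.211 FPKM in Cd69WT term diff libraries. Of the rest of that marker list, Il2ra (a mean of 13.7 FPKM in both genotypes) and Cd4 overlapped between genotypes in stem-like libraries. Ikzf4 was at 0.963 and 0.699 FPKM in Cd69KO stem-like against 0.994 and 1.94 FPKM in Cd69WT stem-like libraries. In term diff libraries Ikzf4 went the other way, at 1.17 and 0.982 FPKM in Cd69KO against 0.721 and 0.942 FPKM in Cd69WT. Cd40lg was higher, at 2.78 and 3.16 FPKM in Cd69KO stem-like against 1.99 and 1.91 FPKM in Cd69WT stem-like libraries. The part of CD4 and regulatory T cells in the Spry2 difference was not tested. Markers of terminally differentiated T cells summed higher in Cd69KO in both subsets, and their part in the Spry2 difference was not tested either. Spry2 ranked as number 17 of 9782 genes by p in stem-like cells. The averaged call held in 11 of 18 alternatives and ended in the other 7. With single libraries left out the adjusted p was 0.0627 (Cd69WT stem-like replicate 2), 0.0987 and 0.0941 (Cd69KO stem-like replicates 1 and 2), 0.0869 (Cd69WT term diff replicate 2) and 0.0812 (Cd69KO term diff replicate 1). It was 0.171 without both Cd69WT replicate 2 libraries and 0.105 without a filter.

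No other member passed a genotype comparison, and with all 4 Cd69KO libraries set against all 4 Cd69WT libraries 0 of the 9 genes were without overlap, where 3.07% of all genes were. In stem-like cells 0 of 9 members were called (0.153% of all genes, 15), with Spry2 at an unadjusted p under 0.05, and voom on implied fragments called 1, Spry2 (adjusted p = 0.00019). In term diff cells 0 of 9 were called (0.194% of all genes, 19), by limma and by voom, with Spry2 and Dusp1 at an unadjusted p under 0.05. Dusp1 was at 47.8 and 39.9 FPKM in Cd69KO and 56.8 and 54.1 FPKM in Cd69WT term diff libraries (-0.34 ± 0.14, adjusted p = 0.31, limma). Dusp10 was at 16.4 and 14.3 FPKM in Cd69KO and 11.4 and 11.9 FPKM in Cd69WT stem-like libraries (0.37 ± 0.17, adjusted p = 0.72). For Dusp6 the averaged genotype difference was -0.01 ± 0.08 with a 95% interval of -0.21 to 0.18, and for Dusp5 it was 0.09 ± 0.14 with an interval of -0.23 to 0.41. Spry1 to Spry2 was 2.82 and 2.44 in Cd69KO stem-like against 1.10 and 1.01 in Cd69WT stem-like libraries, and 1.75 and 1.15 in Cd69KO term diff against 0.856 and 1.15 in Cd69WT term diff libraries.

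The order of the 4 groups differed by gene. For Dusp5 it was Cd69WT term diff, Cd69KO term diff, Cd69KO stem-like and Cd69WT stem-like from high to low, with overlap between genotypes within each subset. Dusp6 ran from Cd69WT stem-like through Cd69KO stem-like and Cd69KO term diff to Cd69WT term diff, and its term diff groups overlapped. Dusp4 was highest in Cd69WT stem-like, which overlapped with Cd69KO stem-like, and lowest in Cd69KO term diff. In Spry2 the middle groups, Cd69WT term diff and Cd69KO stem-like, overlapped.

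For each member called, the genes with the most similar profile over the 8 libraries were sought among 4727 single-locus genes with a mean of at least 5 FPKM, by the root mean square difference of centred log2(FPKM + 1) values. For Dusp5 these were Nedd9 (0.09) and Il12rb2 (0.15), a receptor chain for interleukin 12, where the profile of Dusp5 itself had a root mean square of 0.75. For Dusp6 (own value 0.54) they were Arhgef3 (0.06) and Tagap (0.11), and for Spry1 (0.59) the phosphatase gene Ptprs (0.11) and the corepressor gene Tle3 (0.12). Dusp4 (0.32) was nearest to Kif1b (0.06) and Zfand3 (0.08). Spry2 (0.51) had less close neighbours, the actin crosslinker gene Actn1 (0.18) and the junction gene Pkp4 (0.19). Pkp4 was at a mean of 13.3 FPKM in Cd69KO stem-like against 28.6 FPKM in Cd69WT stem-like libraries. Among the called members themselves, Dusp6 and Spry1 were the closest pair and differed by 0.21. Some pairs with uncalled members were closer, with Dusp2 and Dusp10 the closest of all at 0.20. Levels that differ between groups shape these values, and they are given as a description.

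Other genes of the pathway are counted here for the subsets averaged over genotypes, beside 10.5% higher and 9.93% lower among all genes. Of the other 4 MAP kinase phosphatase genes only Dusp16 reached the filter, at 5.67 to 10.9 FPKM (0.31 ± 0.12, adjusted p = 0.11, limma), and Dusp7, Dusp8 and Dusp9 stayed below 1 FPKM. Of 4 further Sprouty and Spred genes only Spred2 reached it (0.35 ± 0.11, adjusted p = 0.063), while Spry4 was at most 0.264 FPKM and Spry3 was listed at 0 in every library. Of 12 atypical dual-specificity phosphatase genes 5 were tested and Dusp14 fell (-0.86 ± 0.19, adjusted p = 0.015), a call that ended without a filter (adjusted p = 0.0672).

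In the ERK cascade 1 of 18 genes tested (of 20 listed, Hras and Lamtor1 not analysed here) rose and 3 fell, with a median of -0.08. The scaffold genes Ksr1 (-0.96 ± 0.12, adjusted p = 0.00082, limma) and Ksr2 (-1.09 ± 0.12, adjusted p = 0.00046) were among those that fell, Ksr2 at no more than 0.185 FPKM in term diff and 1.91 FPKM in stem-like libraries. Ksr2 reached the filter through stem-like libraries alone, so it had to be higher there. Neither its call nor its place among the 3 carries weight of its own. The ribosomal S6 kinase gene Rps6ka1, a target of ERK, rose (0.69 ± 0.10, adjusted p = 0.0025). The ERK gene Mapk3 did not pass (0.30 ± 0.12, adjusted p = 0.12). Among 13 Ras exchange factors, GTPase activators and adaptors tested (of 19) 1 rose and 4 fell (median -0.20). Those that fell included Rasa3, a GTPase activator of Ras and Rap, at -1.06 ± 0.11 and Ptpn11, the phosphatase SHP2, at -0.77 ± 0.09.

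The list of ERK-induced transcripts also holds the factor genes Elk1, Elk3, Elk4 and Srf, whose induction by ERK is not established here. Its genes went both ways, 3 higher and 5 lower of 17 tested (of 20, median -0.15). Fos, a subunit of AP-1 (-0.81 ± 0.12, adjusted p = 0.0021, limma), and Elk4, a partner of serum response factor (-0.56 ± 0.10, adjusted p = 0.0054), fell. The AP-1 genes called here did not share a direction, as Fosb also fell but Fosl2 rose. Fosl2 was at 40.4 to 85.2 FPKM in term diff and 35.5 to 47.0 FPKM in stem-like libraries, with overlap. Its call held in 8 of 18 alternatives. The zinc finger factor genes Egr2 and Egr3 are also among the 5, but both reached the filter through the stem-like libraries where they were higher. Neither their calls nor their places among the 5 carry weight of their own. Egr3 was at 0.365 to 1.47 FPKM in term diff and 3.24 to 4.98 FPKM in stem-like libraries. Their relative Egr1 rose (0.91 ± 0.19, adjusted p = 0.012), at 12.4 to 25.1 FPKM in term diff and 8.15 to 13.3 FPKM in stem-like libraries, with overlap, and its call ended without a filter (adjusted p = 0.0568). In the JNK and p38 list 2 of 18 tested (of 22) rose and 2 fell (median 0.03), with the kinase gene Map3k8, which also acts on the ERK branch, at -1.30 ± 0.10 (adjusted p = 9.8e-05). The other gene of this list that fell reached the filter through stem-like libraries alone, so its place among the 2 carries no weight of its own. Of 16 early genes that respond to tissue handling 1 rose and 6 fell (median -0.21), with Jun at 14.7 to 17.7 FPKM in term diff and 30.2 to 40.0 FPKM in stem-like libraries (-1.13 ± 0.11). The part of handling in the subset differences was not tested. The early list shares Fos, Fosb, Junb, Egr1, Ier2 and Ier3 with the ERK-induced list.

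**Figure D4:**
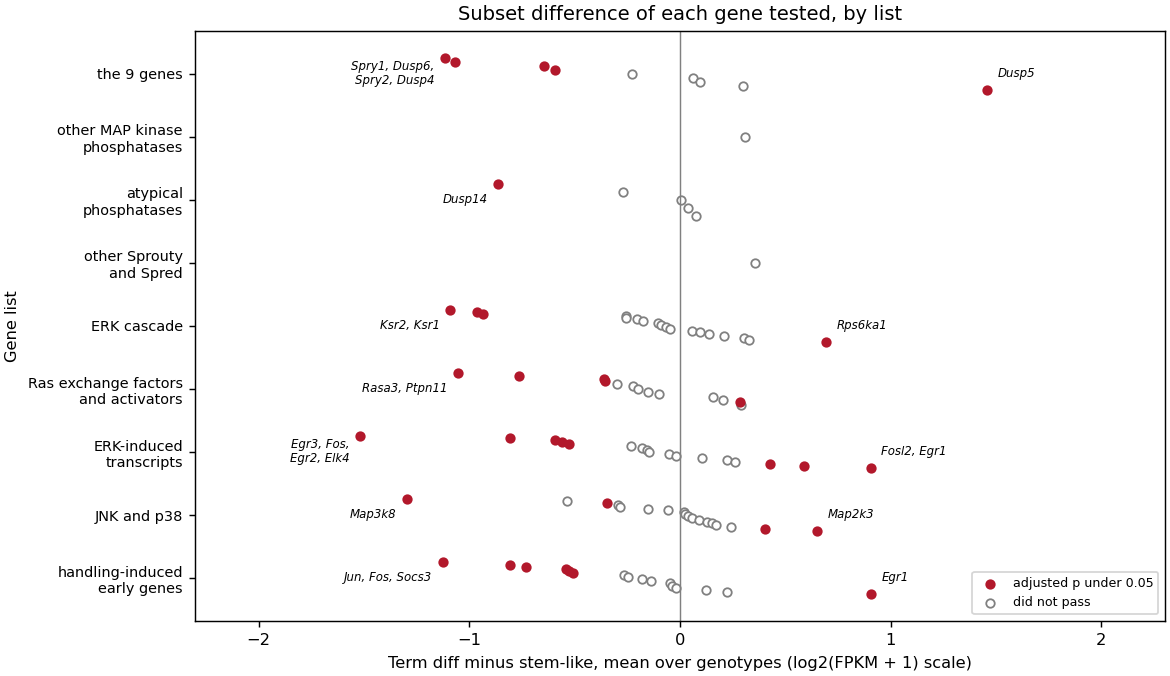
Difference of term diff minus stem-like, averaged over genotypes, on the log2(FPKM + 1) scale (horizontal axis) for every gene tested in each list (vertical axis); filled points have an adjusted p under 0.05, and most of those beyond 0.55 in size are named. The 9 genes reach 1.46 for Dusp5 and -1.12 for Spry1, and most genes of the ERK cascade and of JNK and p38 lie near 0.

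By genotype, averaged over subsets, these lists held 1 gene past the threshold, where 0.542% of all genes passed (53 genes). This 1 call is given as a description and is no result about the lists. Ier3, an early gene that is itself a substrate and regulator of ERK, was at 8.49 and 11.7 FPKM in Cd69KO term diff against 2.87 and 2.72 FPKM in Cd69WT term diff, and at 6.16 and 8.79 FPKM in Cd69KO stem-like against 4.83 and 3.46 FPKM in Cd69WT stem-like libraries. Ier3 rose by 1.12 ± 0.15 averaged over subsets (adjusted p = 0.021, limma). Within term diff cells it rose by 1.53 ± 0.21 (adjusted p = 0.042, called in 7 of 19 alternatives), where 0.194% of all genes were called. The averaged call held in 12 of 18 alternatives and ended without replicate 2 of any group, at an adjusted p of 0.0577 (Cd69WT stem-like), 0.0645 (Cd69KO stem-like), 0.0763 (Cd69WT term diff) and 0.0716 (Cd69KO term diff). It also ended without both Cd69WT replicate 2 libraries (adjusted p = 0.145) and without a filter (adjusted p = 0.135).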

How the data were processed

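Tables of 8 RNA-seq libraries were used. Per the labels' protocols, total RNA was sequenced single-end on a NextSeq500 after a stranded low-input library preparation. The authors deposited FPKM and the bounds of its confidence interval for every gene, in the Cufflinks layout per the file headers. The software named in the submitters' processing notes was Cufflinks 2.2.1, TopHat 1.3.2, Bowtie2 2.3.4 and bcl2fastq 2.20, and the build mm10. Annotation, strand setting and the total behind the FPKM are not given in the sources used here.

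Read counts were not analysed here. Implied fragments were taken from each interval as the square of 2 times the FPKM over the distance to its upper bound. In each library 63.6% to 65.5% of the rows below 15 such fragments were whole to within 0.05, so they are approximate, and they cover counting error only. The 3 rows with a status other than OK in a library were left out.

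The scale was log2(FPKM + 1), with no further scaling. Genes reaching 1 FPKM in 2 or more libraries were fitted as 4 group means over all 8 libraries with limma 3.58.1 in R 4.3.3 (trended empirical Bayes, 4 residual and 4.2 prior degrees of freedom). Tests were 2-sided, with Benjamini-Hochberg adjustment over 9782 genes and a threshold of 0.05. The fit was tested on simulated data.

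The members, lists and comparisons were chosen with earlier results of these data known. Genes were named by rule: all members, Cd69, the 2 nearest profiles of each called member, and called genes of each list by smallest p, up to 6 a list and fewer here. Markers and uncalled list genes named beside these were chosen after their values were seen. The 19 alternatives were pseudocounts of 0.1 and 5, no filter or 5 FPKM, median-of-ratios scaling, quantile normalization, rescaling to an equal sum without small RNA, a replicate block, only the groups compared, voom on implied fragments, each library left out, and both Cd69WT replicate 2 libraries left out. Some genes of the lists are counted but not reported here by name. Promoter sequences are RefSeq's, of GRCm38.p6.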

Additional observations from a re-analysis of the deposited data

How the results depend on the processing

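No called member changed direction in any alternative run. For the subsets averaged over genotypes 5 to 6 members were called, against 5 as reported. Within Cd69WT it was 3 to 6, against 4. Within Cd69KO it was 2 to 4 with each library left out and 3 to 5 otherwise, against 4. Between genotypes in stem-like cells it was 0 with each library left out, and 1 (Spry2) with a pseudocount of 5 and with voom on implied fragments, against 0. Averaged over subsets it was 0 to 1 with each library left out, 0 without a filter and 0 without both Cd69WT replicate 2 libraries, against 1. The cause was not tested. Between genotypes in term diff cells and in the interaction it was 0 throughout.

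Deviations of same-numbered libraries correlated by -0.30 to 0.15, highest between the Cd69WT groups, and not every pair was positive, so numbers were not taken to pair libraries. With the number as a replicate block 3 members were called in Cd69KO, Dusp4 being lost. Counts over all genes spanned 362 to 1879 in Cd69WT (1278 as reported), 287 to 1633 in Cd69KO (924) and 1280 to 2731 averaged over genotypes (2001). Between genotypes they spanned 4 to 43 in stem-like cells (15), 3 to 342 in term diff cells (19) and 13 to 235 averaged (53), and in the interaction 0 to 17 (3). The median of all genes moved by over 0.1 only for the interaction, by 0.11 without a filter and 0.10 with voom. A fit of only the groups compared does not exist for averages or the interaction. Precision is limited by 2 libraries a group and, for Spred1, by a counting error of 9.93% to 12.5%.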
